A study of Saccharomyces cerevisiae with 12 samples.

Results

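Budding yeast takes up glucose through a family of hexose transporters (Hxt proteins) whose genes are switched on and off by glucose sensors in the plasma membrane. The 10 genes described here are the main transporter genes *HXT1* to *HXT7*, the sensor genes *SNF3* and *RGT2*, and *MTH1*, which encodes a co-repressor acting below the sensors. They were chosen by name for their known roles, with earlier results of these data known, and are 10 of the 7126 genes in the deposited table. RNA was sequenced from cells of the strain background MHY1379 (mating type *MATa*, with mutant alleles of *HIS3*, *LEU2*, *LYS2*, *TRP1* and *URA3*). There were 12 libraries, 3 in each of 4 groups. All of the cells lacked *ULP2* on the chromosome (*ulp2Δ::HIS3*). Ulp2 is a protease that takes SUMO, a small protein tag, off other proteins. WT cells carried *ULP2* on the *URA3* plasmid YCplac33, and *ulp2* null cells carried the same plasmid without it. Each strain was taken after 50 or 500 generations of growth (50G and 500G), the later cultures having been grown daily to stationary phase in YPD, a glucose-rich medium, and diluted. By the methods, RNA came from cells in mid-exponential growth.

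Some features of these groups limit what a difference can stand for. WT cells held *ULP2* on a plasmid rather than at its own locus. Whether the 3 replicates in a group were separate cultures, or were passaged apart, is not given in the sources used here. The p-values therefore measure only the spread between these libraries, and the effect of passage cannot be told apart from a mutation particular to a line. Such mutations are known from the paper's DNA sequencing of the late-passage strains. It found missense mutations in *UBC9*, the gene of the SUMO-conjugating enzyme, and *IFM1* in *ulp2* null cells. In WT cells it found a missense mutation in *BUB1*, a spindle checkpoint gene. Their part in the differences below was not tested. By the study's description, early *ulp2* null cells held an extra copy of chromosomes I and XII. By the paper's copy-number assays, the extra copies of both had been lost by the late passage. None of the 10 genes lies on either chromosome.

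Glucose outside the cell is read by Snf3, which senses low amounts, and Rgt2, which senses high amounts. Both look like transporters but signal instead of importing sugar. Their signal leads to destruction of Mth1 and its relative Std1, and without these partners the repressor Rgt1 leaves the *HXT* promoters. Hxt1 and Hxt3 are low-affinity transporters used when glucose is plentiful, and Hxt2, Hxt4, Hxt6 and Hxt7 serve at lower glucose. *HXT2* and *HXT4* are also held down by the repressor Mig1 when glucose is high. Hxt5 is of moderate affinity, and its gene is known to be switched on when growth slows or glucose runs out.

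In the R64 reference genome 6 of the 10 genes lie close to other members. *HXT4* (YHR092C, 287081 to 288811), *HXT1* (YHR094C, 290913 to 292625) and *HXT5* (YHR096C, 294669 to 296447) follow each other on the minus strand of chromosome VIII. On the minus strand of chromosome IV stand *HXT7* (YDR342C, 1154216 to 1155928), *HXT6* (YDR343C, 1159608 to 1161320) and *HXT3* (YDR345C, 1162957 to 1164660), and *MTH1* (YDR277C, 1014401 to 1015702) is on the same strand farther off. Chromosome IV also holds *SNF3* (YDL194W, 111580 to 114234) and *RGT2* (YDL138W, 213351 to 215642) on its plus strand, and *HXT2* (YMR011W, 288079 to 289704) is on the plus strand of chromosome XIII. Each coordinate pair spans a coding region of 1 exon, and none of the 10 coding regions overlaps another annotated gene.

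*HXT6* and *HXT7* cannot be measured apart with confidence. Their coding regions are both 1713 bases long and differ at 3 bases, T1632C, G1666A and T1677C, written as the *HXT6* base, its position from the A of the start codon, and the *HXT7* base. All 3 lie in the 60 coding bases from 1618 to 1677, which are shown here because the coding regions are identical outside them. They occupy chrIV:1159644-1159703 for *HXT6* and chrIV:1154252-1154311 for *HXT7*, are read on the minus strand of R64, and have the differing bases in capitals.
HXT6: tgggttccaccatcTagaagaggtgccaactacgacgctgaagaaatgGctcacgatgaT
HXT7: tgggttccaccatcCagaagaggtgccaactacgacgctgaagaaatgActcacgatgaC
Of the stretches of 70 bases in either coding region, which is the greatest length of a trimmed read, 95.01% also occur elsewhere in the genome. The corresponding share was 9.36% for *HXT3*, 3.04% for *HXT1*, 2.92% for *HXT5*, 0.542% for *HXT4* and 0 for *HXT2*, *SNF3*, *RGT2* and *MTH1*. Reads with more than 1 location were dropped by the authors, so the values of *HXT6* and *HXT7* rest on a small part of each gene and on flanking sequence. They may be too low by an unknown factor beside those of other genes, and they are read below as a pair. Between the other members base identity reached 81.9% for *HXT1* and *HXT3* and 81.7% for *HXT4* and *HXT7*, and was 56.2% for the sensors *SNF3* and *RGT2*.

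The sequences before the start codons were searched for the short motifs of the glucose response on both strands: CGGANNA, the motif bound by Rgt1; GGGG preceded by C or G and then by C or T, the core of the motif bound by Mig1; and CCCCT, the stress response element bound by Msn2 and Msn4. Over the 1000 bases before the start codon of 6002 genes, at least 1 match was found in 66.6%, 41.8% and 55.0% of windows. *HXT3* had 9 matches to CGGANNA, a number reached in 1 of the 6002 windows, and *HXT1* had 8, which 2 windows reached. *HXT5* and *MTH1* had 4, *HXT2*, *HXT4* and *HXT6* had 3, *HXT7* had 2, and the sensor genes *SNF3* and *RGT2* had 0. *HXT2* and *HXT4* each held 4 Mig1-type matches, a number reached in 0.833% of windows, and *HXT6* and *MTH1* held 3. Matches to CCCCT were most numerous at *HXT6* with 5, *HXT7* with 4 and *MTH1* with 3. In the 10 windows together 77 matches were counted, and 1 pair of matches to different motifs overlapped.

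**Figure D1:**
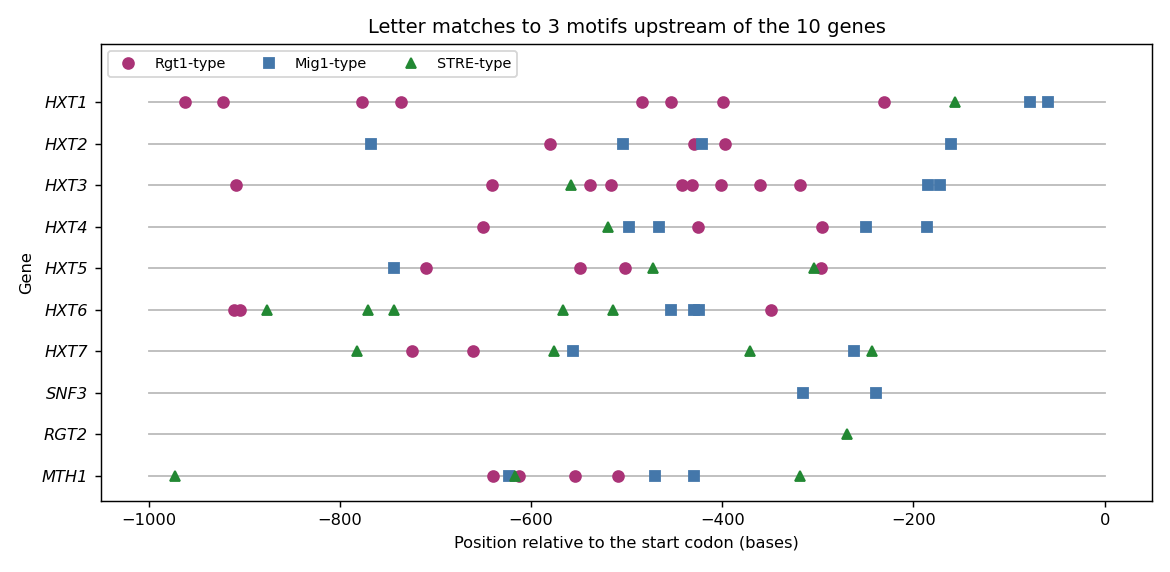
Positions of letter matches to the Rgt1-type, Mig1-type and STRE-type (stress response element) motifs in the 1000 bases before the start codon of each gene, with the start codon at 0 on the horizontal axis in bases and 1 row per gene. *HXT1* and *HXT3* carry the most Rgt1-type matches, 8 and 9, and *SNF3* and *RGT2* carry 0.

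The stretch from 550 to 251 bases before the start codon is given for the 4 transporter genes whose RNA levels moved most or that held the most matches, to show how differently these promoters are built. Bases are R64, written in the direction of the gene, with matches to any of the motifs in capitals. *HXT2* (chrXIII:287529-287828, plus strand) and *HXT4* (chrVIII:289062-289361, minus strand) each have 2 Rgt1-type and 2 Mig1-type matches in this stretch, and *HXT4* also has 1 of the stress response element. *HXT3* (chrIV:1164911-1165210, minus strand) has 7 Rgt1-type matches. *HXT5* (chrVIII:296698-296997, minus strand) has 3 Rgt1-type matches and 2 of the stress response element. The stretch at *HXT4* overlaps the annotated gene *AHT1* on the other strand. A letter match is a description and not evidence of binding.
HXT2: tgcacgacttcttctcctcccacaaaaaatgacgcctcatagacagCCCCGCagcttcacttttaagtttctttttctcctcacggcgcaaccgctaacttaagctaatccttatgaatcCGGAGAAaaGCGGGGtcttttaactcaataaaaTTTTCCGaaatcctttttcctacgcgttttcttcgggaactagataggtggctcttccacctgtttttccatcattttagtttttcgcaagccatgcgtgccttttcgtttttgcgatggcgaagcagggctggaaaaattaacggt
HXT3: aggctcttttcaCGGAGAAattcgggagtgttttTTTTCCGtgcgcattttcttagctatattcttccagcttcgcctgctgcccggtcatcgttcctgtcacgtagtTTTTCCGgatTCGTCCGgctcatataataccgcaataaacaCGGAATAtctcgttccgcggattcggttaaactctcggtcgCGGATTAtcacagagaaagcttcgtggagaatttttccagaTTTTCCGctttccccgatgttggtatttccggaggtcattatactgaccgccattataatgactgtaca
HXT4: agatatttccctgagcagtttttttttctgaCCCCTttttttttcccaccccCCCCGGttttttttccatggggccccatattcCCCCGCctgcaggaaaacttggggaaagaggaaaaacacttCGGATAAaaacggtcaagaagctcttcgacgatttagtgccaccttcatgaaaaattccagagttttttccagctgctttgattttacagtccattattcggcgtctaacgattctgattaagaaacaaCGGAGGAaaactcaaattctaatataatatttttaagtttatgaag
HXT5: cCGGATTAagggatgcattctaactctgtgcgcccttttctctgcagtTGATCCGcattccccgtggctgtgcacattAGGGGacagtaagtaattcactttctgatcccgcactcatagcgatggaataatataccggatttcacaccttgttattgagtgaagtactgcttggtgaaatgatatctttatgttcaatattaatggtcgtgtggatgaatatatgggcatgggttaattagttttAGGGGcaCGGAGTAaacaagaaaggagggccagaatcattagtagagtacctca

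Levels are given as FPKM, fragments scaled to gene length and to the size of the library. Read counts could not be recovered from them, and the depth of single libraries is not known. Summed over all genes, a library held between 1083961 and 1539386. *ULP2* was at 162 to 217 FPKM in the 6 WT libraries and at 0 to 0.995 in the 6 *ulp2* null libraries, as the labels say. The genes of cytosolic ribosomal proteins held 12.6% to 14.1% of the sum in WT libraries, 20.7% to 21.9% in *ulp2* null 50G and 15.8% to 16.9% in *ulp2* null 500G. In every group the library numbered 1 was the highest for *HXT3*, *HXT5*, *HXT6* and *HXT7*, so that results are also given without these 4 libraries.

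The cultures were also checked for genes known to rise when glucose runs out, since growth on glucose is known to keep them low. *HSP12*, a membrane-protecting stress gene, ranked between 3 and 8 among all 7126 genes in every library, *PCK1*, which drives gluconeogenesis, ranked between 8 and 25, and *ICL1*, a glyoxylate cycle gene, between 23 and 75. Ranks ran from 7 to 21 for *HSP26*, 7 to 125 for *ADH2*, 50 to 188 for *JEN1* and 61 to 307 for *MLS1*. They ran from 125 to 226 for *FBP1* and 236 to 750 for *CTT1*. *SUC2* was the lowest of the list, ranking between 1058 and 2671. The summed FPKM of 10 such genes was 39244 to 41784 in WT 50G, 81212 to 86845 in WT 500G, 22382 to 23405 in *ulp2* null 50G and 62465 to 67954 in *ulp2* null 500G, and the 4 ranges did not overlap. None of the 10 was at or near 0 in any library. The amount of glucose at harvest is not given in the sources used here, and its part in the differences below was not tested.

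Both sensor genes were expressed at modest levels with little spread. The 3 WT 50G libraries gave 47.0, 41.3 and 43.3 FPKM for *SNF3*, followed by 65.4, 56.3 and 52.5 in WT 500G, 52.3, 42.2 and 40.2 at 50G in *ulp2* null cells, and 57.8, 55.7 and 51.8 in *ulp2* null 500G. Levels of *RGT2* were 33.5, 30.0 and 31.1 in WT 50G, 27.3, 21.5 and 21.9 in WT 500G, 30.9, 28.3 and 29.0 at 50G in *ulp2* null cells, and 26.1, 25.4 and 27.9 in *ulp2* null 500G. *SNF3* was thus higher in 500G than in 50G cells of the WT strain with no overlap, and *RGT2* was lower, also with no overlap, as were the groups of 51.8% of all tested genes. For *MTH1* the libraries gave 52.0, 62.8 and 62.0 in WT 50G, 42.8, 52.5 and 69.6 in WT 500G, 63.9, 72.0 and 75.7 at 50G in *ulp2* null cells, and 44.98, 52.9 and 52.6 in *ulp2* null 500G. The *ulp2* null 50G libraries of *MTH1* lay above those of WT 50G and of *ulp2* null 500G, while WT 500G overlapped the other groups. Between *ulp2* null 50G and these groups, 52.6% and 60.4% of all tested genes did not overlap either.

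The low-affinity transporter genes were far below the highest members. *HXT1* lay between 12.7 and 35.5 FPKM over the 12 libraries and its groups overlapped throughout, with means of 29.8 ± 5.18 in WT 50G, 24.3 ± 11.4 in WT 500G, 23.5 ± 7.63 in *ulp2* null 50G and 25.7 ± 8.44 in *ulp2* null 500G (SD, n = 3). Its rank among the 7126 genes ran from 3633 to 5431. *HXT3* was at 109, 68.3 and 79.5 in WT 50G, 86.0, 51.0 and 68.8 in WT 500G, 178, 128 and 100.3 at 50G in *ulp2* null cells, and 109, 76.4 and 68.0 in *ulp2* null 500G. It was highest in *ulp2* null 50G, where 8 of the 9 pairs of libraries exceeded WT 50G.

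*HXT2* was lower after passaging in both strains, and *HXT4* was lowest in passaged WT cells. For *HXT2*, which encodes a transporter for low glucose, WT 50G libraries gave 137, 126 and 133 FPKM, those of *ulp2* null 50G gave 149.7, 108 and 94.9, those of WT 500G gave 51.9, 32.1 and 60.2, and those of *ulp2* null 500G gave 63.8, 47.5 and 45.1. All 6 libraries of 50G cells were above all 6 of 500G cells. Between 50G and 500G, 51.8% of all tested genes did not overlap in WT cells and 60.4% in *ulp2* null cells. *HXT4* was at 35.1, 27.0 and 27.0 in WT 50G, 49.5, 37.1 and 31.9 at 50G in *ulp2* null cells and 32.5, 24.6 and 23.3 in *ulp2* null 500G, and at 11.1, 6.33 and 11.6 in WT 500G. The 3 WT 500G libraries of *HXT4* were below all others.

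*HXT5*, *HXT6* and *HXT7* were the highest members in all 12 libraries. *HXT5* was at 789, 572 and 582 FPKM in WT 50G, 1424, 959.6 and 922 in WT 500G, 455, 327 and 308 at 50G in *ulp2* null cells, and 901, 625 and 618 in *ulp2* null 500G. The groups followed the order *ulp2* null 50G, WT 50G, *ulp2* null 500G, WT 500G, with overlap between the middle pair only. Of all tested genes, 52.6% did not overlap between *ulp2* null 50G and WT 50G, and 27.3% between *ulp2* null 500G and WT 500G. *HXT6* was at 749, 508 and 491 in WT 50G, 598, 394 and 369 in WT 500G, 1025, 681 and 567 at 50G in *ulp2* null cells, and 770.4, 475 and 471 in *ulp2* null 500G. *HXT7* ranged from 333 to 923 and followed it closely, since the ratio of *HXT6* to *HXT7* stayed between 1.09 and 1.15 in all 12 libraries. Their groups overlapped, with *ulp2* null 50G highest and WT 500G lowest by mean, the reverse of *HXT5*.

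**Figure D2:**
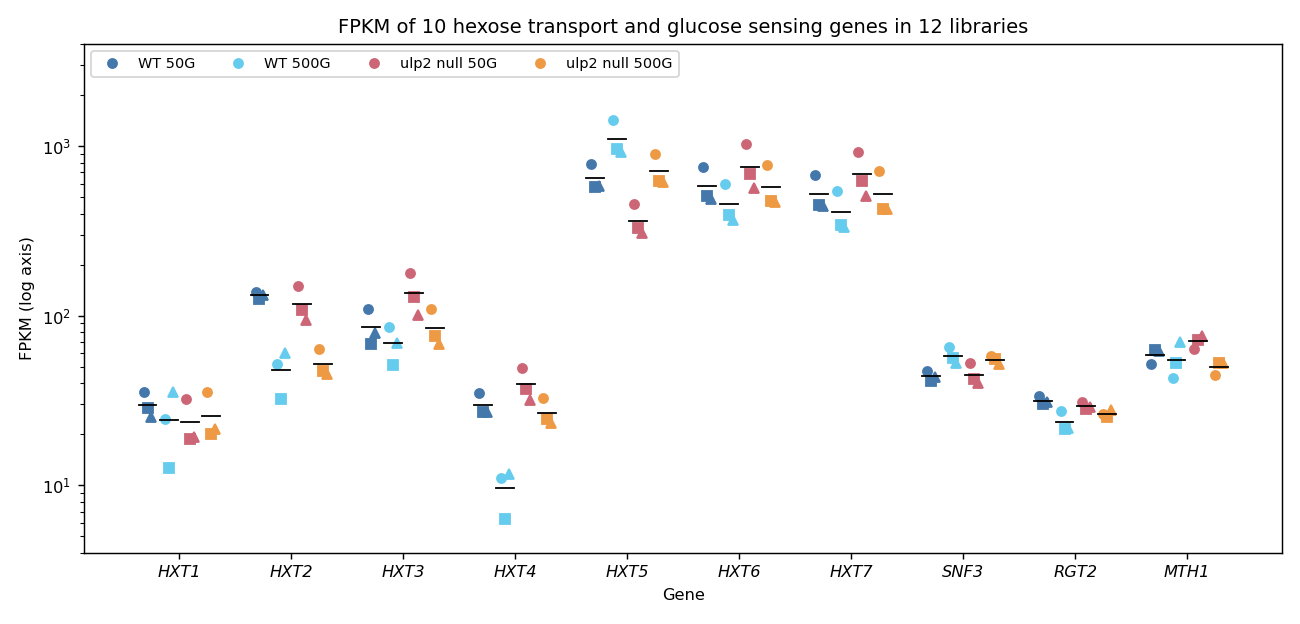
FPKM on a log axis of the 10 genes in the 12 libraries, coloured by group, with circles, squares and triangles for replicates 1, 2 and 3 and a line at each group mean. *HXT5*, *HXT6* and *HXT7* stand between 308 and 1424 FPKM in every library, and *HXT4* drops to between 6.33 and 11.6 in WT 500G.

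Ordered by mean, WT 50G cells ran *HXT5* (648 ± 122), *HXT6* (583 ± 145), *HXT7* (524 ± 129.9), *HXT2* (132 ± 5.88), *HXT3* (85.5 ± 20.9), *MTH1* (58.9 ± 6.02), *SNF3* (43.9 ± 2.88), *RGT2* (31.5 ± 1.81), *HXT1* and *HXT4* (29.7 ± 4.65; SD, n = 3). The ranges of *HXT5*, *HXT6* and *HXT7* over the libraries overlapped, although within each library *HXT5* was 1.05 to 1.19 times *HXT6*, and *HXT6* was 1.10 to 1.12 times *HXT7*. The ranges of *RGT2*, *HXT1* and *HXT4* overlapped too. In WT 500G cells *HXT5* (1102 ± 279.8) led and did not overlap *HXT6* (454 ± 126), and *HXT4* (9.68 ± 2.92) was last. *HXT6* (758 ± 238) and *HXT7* (682 ± 216) led in *ulp2* null 50G cells, above *HXT5* (363 ± 79.5). In *ulp2* null 500G cells *HXT5* (715 ± 161), *HXT6* (572 ± 172) and *HXT7* (521 ± 163) again overlapped. These orders hold for FPKM only, since dropped reads may set *HXT6* and *HXT7* too low against *HXT5*.

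The first comparison asked what early loss of Ulp2 did to these genes. In *ulp2* null 50G relative to WT 50G cells, *HXT5* fell by 0.84 on the log2(FPKM + 1) scale (standard error 0.22, limma adjusted p = 0.0126), and its mean FPKM was 1.78 times as high in WT 50G. It was the only member called by limma, 0 of 10 being higher (1 at an unadjusted p under 0.05) and 1 lower, where 18.7% of all 6572 tested genes were higher and 18.1% lower. *HXT3* differed by 0.65 (standard error 0.27, limma adjusted p = 0.0827), *HXT4* by 0.39 (limma adjusted p = 0.22), *MTH1* by 0.26 (limma adjusted p = 0.23), and *HXT6* and *HXT7* by 0.36 each (limma adjusted p = 0.357 and 0.37). The median over the members was 0.14, beside -0.02 over all tested genes. The call for *HXT5* was lost without WT 50G replicate 1 (-0.69, limma adjusted p = 0.0508) or without *ulp2* null 50G replicate 3 (-0.73, limma adjusted p = 0.0508), and either omission brought *HXT3* past the threshold (0.83 and 0.84, limma adjusted p = 0.0486 and 0.046). Without replicate 1 of every group, *HXT5* (-0.86, limma adjusted p = 0.000135) was lower and *HXT3* (0.62), *HXT6* (0.32) and *HXT7* (0.32) were higher, with limma adjusted p-values of 0.0351, 0.0346 and 0.0385. With the replicate number as a term of the fit (a block), *HXT5*, *HXT3*, *HXT6*, *HXT7* and *MTH1* passed (limma adjusted p = 3.14e-06, 0.00303, 0.00103, 0.00205 and 0.0496). No label says that the numbers pair these libraries. Deviations of same-numbered libraries from their group means correlated at 0.049, 0.071 and -0.0043 between these groups.

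After passaging of WT cells *HXT2* and *HXT4* were lower, *HXT5* was higher and the sensor genes had moved apart. In WT 500G relative to WT 50G cells *HXT2* fell by 1.49 (standard error 0.23, limma adjusted p = 0.000546) and *HXT4* fell by 1.55 (standard error 0.23, limma adjusted p = 0.000397), with mean FPKM 2.75 and 3.07 times as high in WT 50G. *RGT2* fell by 0.41 (standard error 0.09, limma adjusted p = 0.00511). *HXT5* rose by 0.75 (standard error 0.22, limma adjusted p = 0.0202) and *SNF3* by 0.39 (standard error 0.11, limma adjusted p = 0.0159). Of the 10 members 2 were higher and 3 lower, against 21.4% and 19.2% of all tested genes, and the members' median was -0.37 beside 0.01 over all of them. *HXT6* and *HXT7* differed by -0.37 each (limma adjusted p = 0.322 and 0.33), and *HXT1*, *HXT3* and *MTH1* did not pass.

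*HXT2*, *HXT4* and *RGT2* passed in this comparison under all 23 alternatives. The rise of *HXT5* did not pass without WT 50G replicate 2 or 3 or without WT 500G replicate 1 (0.67, 0.68 and 0.55, with limma adjusted p = 0.0704, 0.0666 and 0.0697). That of *SNF3* did not pass without WT 50G replicate 2 or WT 500G replicate 1 (0.35 and 0.31, limma adjusted p = 0.0593 and 0.0552), and without either of these libraries 3 members were called. Scaling the libraries to an equal sum over genes other than those of ribosomal proteins moved the median of all genes to -0.34 and took the rise of *HXT5* to 0.38 (limma adjusted p = 0.139) and that of *SNF3* to 0.03 (limma adjusted p = 0.841). Both values stood above that median. The same scaling brought *HXT6* (-0.74), *HXT7* (-0.75), *HXT3* (-0.69) and *MTH1* (-0.49) past the threshold, with limma adjusted p-values of 0.0318, 0.0354, 0.0409 and 0.0448. With replicate 1 left out of every group, 7 members passed, the same 5 and also *HXT6* (-0.39, limma adjusted p = 0.0155) and *HXT7* (-0.41, limma adjusted p = 0.0147).

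For *ulp2* null 500G against WT 50G cells, the reference group of the study, *HXT2* fell by 1.34 (standard error 0.23, limma adjusted p = 0.00139) and was 2.53 times as high in WT 50G by mean FPKM. *SNF3* rose by 0.32 (standard error 0.11, limma adjusted p = 0.0434). These were the only calls, 1 of 10 higher and 1 lower against 16.1% and 17.8% of all tested genes. *HXT4*, which was lower in WT 500G, differed here by -0.15 (95% confidence interval -0.65 to 0.36, limma adjusted p = 0.655). *RGT2* differed by -0.24 (limma adjusted p = 0.0643). Deviations of same-numbered libraries were weakly correlated between these groups (0.14, 0.11 and 0.14), and no label says that the numbers pair them. With the number as a block over all 4 groups, *SNF3* had a limma adjusted p of 0.00376. *RGT2* (limma adjusted p = 0.0246) and *HXT5* (0.14, limma adjusted p = 0.048) also passed in that fit, which made 4 calls. The difference of *HXT5* turned to -0.042 without *ulp2* null 500G replicate 1 and to -0.12 under equal-sum scaling. Without the block the call for *SNF3* was lost when any of 7 libraries was left out, namely replicates 2 and 3 of WT 50G, replicate 2 of WT 500G, replicate 2 of *ulp2* null 50G and each replicate of *ulp2* null 500G (0.28 to 0.37, limma adjusted p from 0.0553 to 0.134), and under equal-sum scaling (0.07, limma adjusted p = 0.575). Without WT 500G replicate 1 *RGT2* passed (limma adjusted p = 0.0197) and 3 members were called.

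Between the strains at the late passage, *HXT4* was the only member called in the main fit. Its level in *ulp2* null 500G exceeded that in WT 500G cells by 1.41 (standard error 0.23, limma adjusted p = 0.00387), a ratio of 2.77 in mean FPKM, with all 9 pairs of libraries in this direction. No other member was called by limma, 1 being lower at an unadjusted p under 0.05, and 4.90% of all tested genes were higher and 6.06% lower. *HXT5* differed by -0.62 (95% confidence interval -1.11 to -0.13, limma adjusted p = 0.105), with no overlap between the groups, as for 27.3% of all tested genes. *HXT6* and *HXT7* differed by 0.33 and 0.35 (limma adjusted p = 0.494 and 0.48). Fitted on these 2 groups alone, *HXT4* had the same difference and a limma adjusted p of 0.0574. Without replicate 1 of every group *HXT4* (1.38, limma adjusted p = 0.0191), *HXT5* (-0.60, limma adjusted p = 0.00341) and *RGT2* (0.28, limma adjusted p = 0.0407) passed. With the replicate number as a block, *HXT4*, *HXT5*, *HXT6* and *HXT7* passed (limma adjusted p = 0.000856, 0.000116, 0.00632 and 0.00835). Deviations of same-numbered libraries correlated at 0.16, -0.066 and 0.066 between these groups, so that the numbers do not clearly pair them.

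Passaging of *ulp2* null cells was followed by a fall of *HXT2* by 1.15 (standard error 0.23, limma adjusted p = 0.0017) and a rise of *HXT5* by 0.97 (standard error 0.22, limma adjusted p = 0.00375) in 500G relative to 50G cells, and both calls held in all 23 alternatives. *MTH1* fell by 0.48 (standard error 0.16, limma adjusted p = 0.0224) and *SNF3* rose by 0.30 (standard error 0.11, limma adjusted p = 0.0409). With 2 of 10 members higher and 2 lower, the background was 24.5% and 29.7% of all tested genes, and the members' median was -0.39 beside -0.05. *HXT3* differed by -0.67 (limma adjusted p = 0.0555) and *HXT4* by -0.53 (limma adjusted p = 0.0709). *MTH1* was not called without *ulp2* null 50G replicate 2 or 3 or *ulp2* null 500G replicate 1 (-0.47, -0.43 and -0.41, limma adjusted p = 0.06, 0.0726 and 0.0731). *SNF3* passed in 12 of 23 alternatives. Its call was lost without replicate 2 or 3 of WT 50G, replicate 2 of WT 500G, replicate 2 or 3 of *ulp2* null 50G, or replicate 1 or 2 of *ulp2* null 500G (0.22 to 0.30, limma adjusted p from 0.0505 to 0.146), and under equal-sum scaling its difference turned to -0.073 while the median of all genes stood at -0.41. The same scaling brought *HXT3* (-1.04), *HXT4* (-0.90), *HXT6* (-0.78), *HXT7* (-0.76) and *RGT2* (-0.51) past the threshold, with limma adjusted p-values of 0.00429, 0.00524, 0.0218, 0.0273 and 0.000867. *HXT3* passed without replicate 1 of WT 50G, of WT 500G or of *ulp2* null 500G, without replicate 2 of WT 500G, or without replicate 3 of *ulp2* null 50G (-0.67 to -0.86, limma adjusted p from 0.0261 to 0.0497). *HXT4* passed without replicate 2 of WT 500G (-0.53, limma adjusted p = 0.0288) or replicate 1 of *ulp2* null 500G (-0.67, limma adjusted p = 0.044), and 2 members were called without *ulp2* null 50G replicate 2. With replicate 1 left out of every group 7 members passed, *HXT4* not among them.

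**Figure D3:**
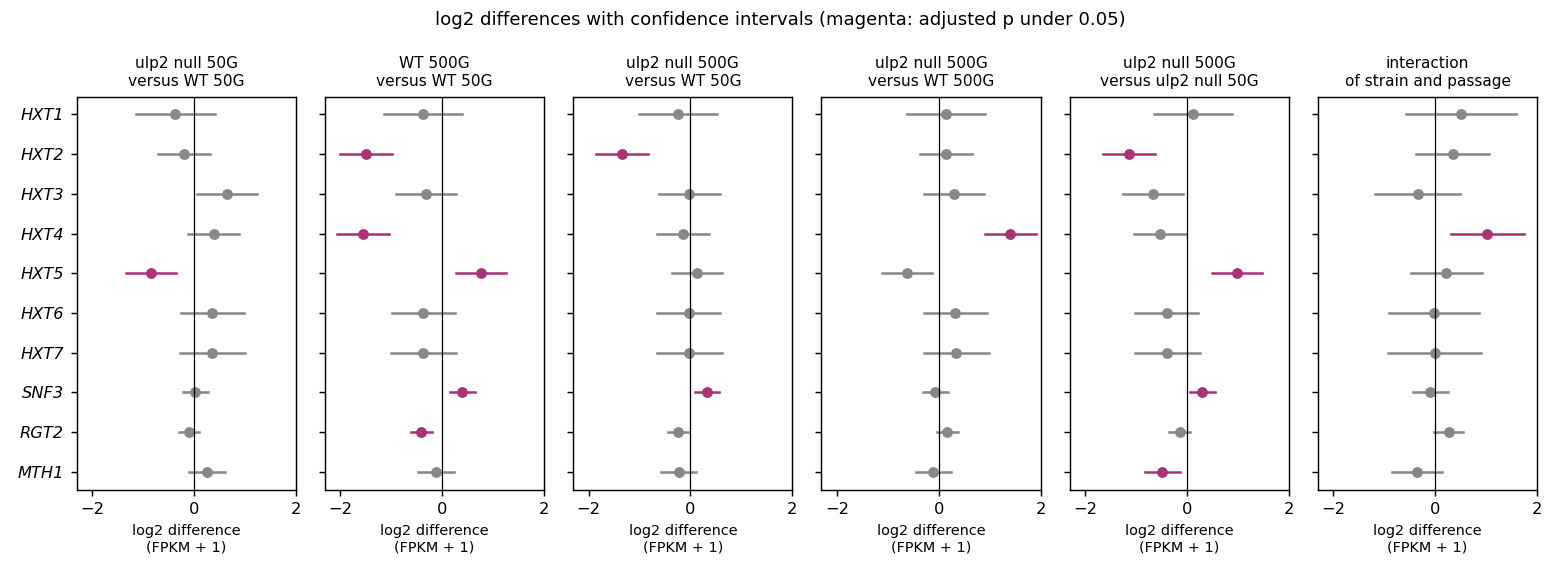
log2 differences of the 10 genes on the log2(FPKM + 1) scale in 5 comparisons and the interaction, 1 panel each, with points for the estimate and lines for the 95% confidence interval. Magenta marks adjusted p under 0.05: *HXT2* is lower by 1.15 to 1.49 in the 3 comparisons of 500G with 50G cells, and *HXT4* by 1.55 in WT cells.

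The interaction asked whether the change from 50G to 500G differed between the strains. *HXT4* was called, the change in *ulp2* null cells exceeding that in WT cells by 1.02 (standard error 0.32, limma adjusted p = 0.0438), and it was the only member among 10, where 9.74% of all tested genes had a positive and 13.0% a negative interaction. The call was not firm. It was lost without any 1 of 9 libraries, which were all but replicates 1 and 3 of WT 500G and replicate 1 of *ulp2* null 50G (0.77 to 1.11, limma adjusted p from 0.0515 to 0.103), and without replicate 1 of every group (1.04, limma adjusted p = 0.0656). Other members passed in that last fit, *HXT5* (0.26, limma adjusted p = 0.0459) and *RGT2* (0.37, limma adjusted p = 0.0302). Without WT 500G replicate 1 *RGT2* was also called (0.37, limma adjusted p = 0.026), and 2 members passed. For *HXT2* and *HXT5*, which were called in the same direction on passage of both strains, the interactions were 0.34 (95% confidence interval -0.38 to 1.06) and 0.22 (95% confidence interval -0.48 to 0.92), so a difference of such sizes between the strains is not excluded by these data.

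Ratios between members within a library do not depend on how the libraries were scaled, and they separated the groups more sharply than the levels. They were chosen after the values were seen and are given without a test. *HXT5* made up 31.2%, 32.1% and 32.6% of the summed FPKM of *HXT1* to *HXT7* in the WT 50G libraries, 51.9%, 53.3% and 51.2% in WT 500G, 16.2%, 17.0% and 19.0% at 50G in *ulp2* null cells, and 34.4%, 36.9% and 36.9% in *ulp2* null 500G. No library of one group reached the range of another. *HXT6* and *HXT7* together took 54.2% ± 1.91, 40.6% ± 1.42, 67.6% ± 1.69 and 54.4% ± 1.77 in the same order of groups (SD, n = 3), and *HXT1* to *HXT4* took 13.8% ± 1.19, 7.26% ± 2.21, 15.0% ± 0.362 and 9.52% ± 0.390. The sum itself overlapped between all groups and lay between 1627 and 2811 FPKM. The mix of these FPKM values thus differed between groups. Reads shared by *HXT6* and *HXT7* were dropped, so the sum and the shares may give these genes too little weight. Whether the total of transporter RNA differed cannot be read from the sum.

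**Figure D4:**
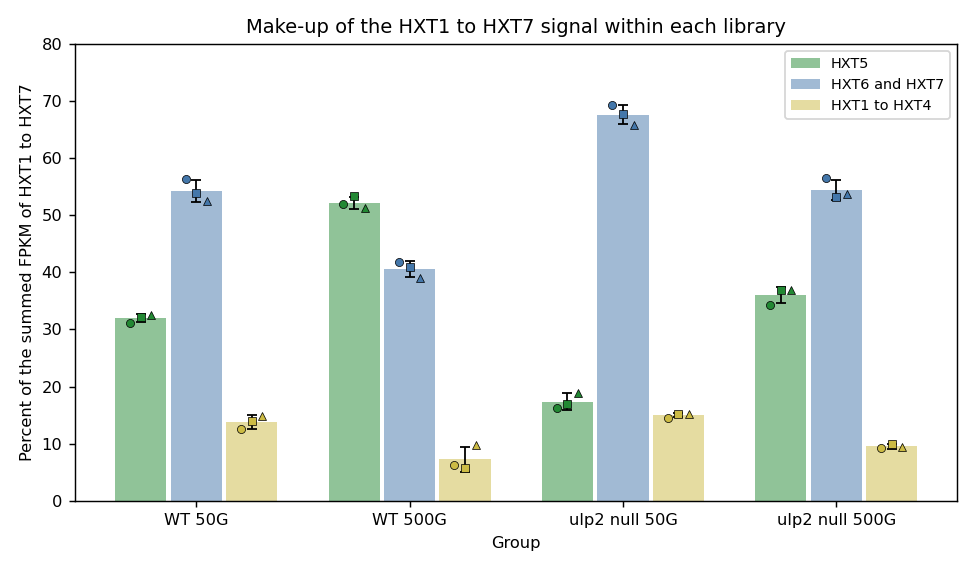
Percent of the summed FPKM of *HXT1* to *HXT7* in each library held by *HXT5*, by *HXT6* with *HXT7*, and by *HXT1* to *HXT4*, with bars for group means, error bars for the SD of 3 libraries and points for the libraries (circle, square and triangle for replicates 1, 2 and 3). The share of *HXT5* runs from 17.4% in *ulp2* null 50G to 52.2% in WT 500G, and that of *HXT6* with *HXT7* is highest in the former group and lowest in the latter. Shares of one sum are bound to each other, so this is not a separate observation.

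The ratio of *HXT5* to *HXT6* was 1.05 to 1.19 in WT 50G, 2.38 to 2.50 in WT 500G, 0.444 to 0.544 in *ulp2* null 50G and 1.17 to 1.32 in *ulp2* null 500G, the last overlapping the first. For the sensors, the ratio of *SNF3* to *RGT2* was 1.402, 1.38 and 1.39 in WT 50G, 2.39, 2.61 and 2.395 in WT 500G, 1.69, 1.49 and 1.39 at 50G in *ulp2* null cells, and 2.21, 2.196 and 1.86 in *ulp2* null 500G. Every 500G library was above every 50G library. The balance of the sensor RNAs therefore lay further towards the low-glucose sensor in passaged cells of both strains, whichever scaling is used.

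Libraries numbered 1 stood apart in all 4 groups. *HXT3*, *HXT5*, *HXT6*, *HXT7* and *SNF3* were highest in replicate 1 of each group, 5 of the 10 members where 12.3% of all tested genes did so, and *MTH1* was lowest in replicate 1 of each group, as were 15.6% of all tested genes. For replicates 2 and 3 the same shares were 1.03% to 2.91%. *HXT6* in replicate 1 was 1.501 to 1.64 times the mean of the other 2 libraries, *HXT5* 1.37 to 1.51 times, *HXT3* 1.44 to 1.56 times and *MTH1* 0.7004 to 0.866 times. What set these libraries apart is not given by the labels, which place all of them in the same lane, and its part in the results was not tested.

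**Figure D5:**
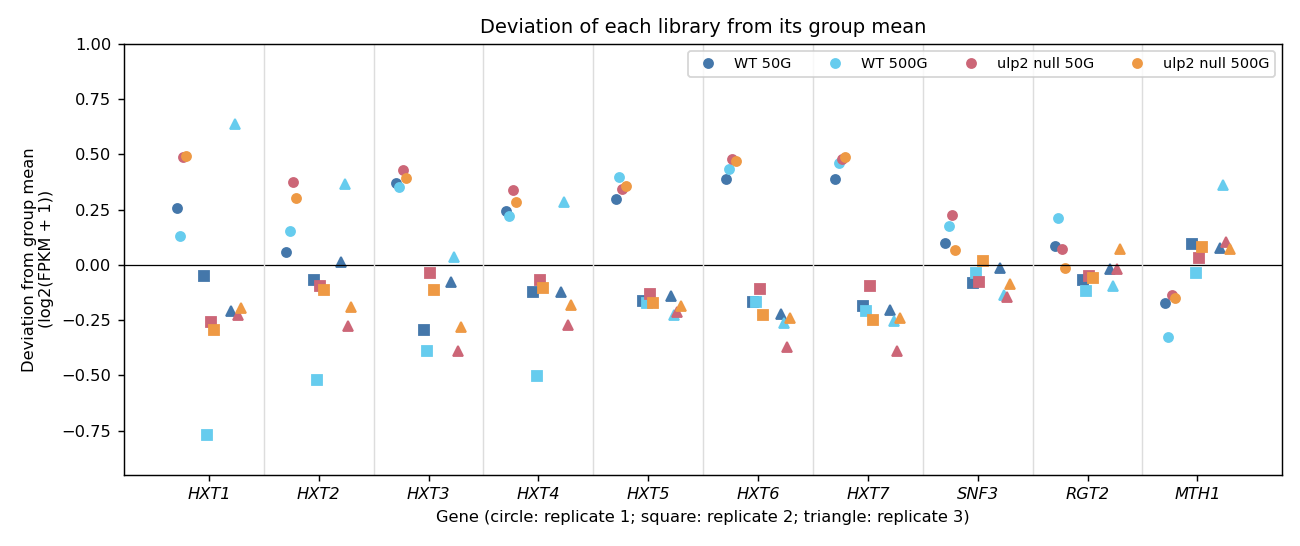
Deviation of each library from its group mean on the log2(FPKM + 1) scale for the 10 genes, coloured by group, with circles, squares and triangles for replicates 1, 2 and 3. Circles are above 0 in all 4 groups for *HXT3*, *HXT5*, *HXT6*, *HXT7* and *SNF3* and below 0 for *MTH1*.

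Within groups *HXT5* and *HXT6* moved together and between groups they did not. The deviations of the 12 libraries from their group means had a Pearson correlation of 0.99 between *HXT5* and *HXT6*, while the values themselves had -0.26. *MTH1* deviated opposite to *HXT5*, with -0.86. *HXT1*, *HXT2* and *HXT4* formed another set, with correlations of deviations from 0.94 to 0.96, and for these WT 500G replicate 2 was the lowest library at 12.7, 32.1 and 6.33 FPKM. These are descriptions over libraries that share groups and replicate numbers.

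The less used transporter genes *HXT8* to *HXT17* and the galactose transporter gene *GAL2* were low, between 91.6 and 178 FPKM for all 11 together. In *ulp2* null 50G relative to WT 50G cells 5 of the 11 rose and 0 fell (0 also at an unadjusted p under 0.05 by limma): *HXT8* by 0.56, *HXT9* by 0.90, *HXT10* by 0.65, *HXT11* by 0.58 and *HXT12* by 0.81 (limma adjusted p from 0.000871 to 0.0275), where 18.7% of all tested genes were higher and 18.1% lower. In *ulp2* null 500G relative to *ulp2* null 50G cells 0 rose and 5 fell (0 and 7 at an unadjusted p under 0.05 by limma), where 24.5% of all tested genes rose and 29.7% fell, and the median difference of the list was -0.44 beside -0.05 over all of them. Passaging of WT cells left 1 higher (*HXT17*, 0.51) and 1 lower (*GAL2*, -0.76), against 21.4% and 19.2% of all tested genes. In *ulp2* null 500G 2 were higher and 0 lower than in WT 50G by limma (2 and 0 at an unadjusted p under 0.05; 16.1% and 17.8% of all tested genes were called), and 0 were called against WT 500G (2 higher and 0 lower at an unadjusted p under 0.05), where 4.90% and 6.06% of all tested genes were. *HXT9* (-0.85) and *HXT12* (-0.63) had negative interactions.

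Among 22 other genes of glucose signalling, *STD1* showed the largest fall in both passaged strains. This gene, whose protein is the partner of Mth1 at Rgt1, fell relative to WT 50G cells by 1.11 in WT 500G (limma adjusted p = 0.001) and, after passaging without Ulp2, by 1.06 (limma adjusted p = 0.00169), and by 1.43 in *ulp2* null 500G relative to *ulp2* null 50G (limma adjusted p = 0.000102). *RGT1*, the repressor gene, rose by 0.37, 0.41 and 0.33 in the same comparisons. Relative to WT 50G, of the 22 genes 3 were called higher and 4 lower in *ulp2* null 50G, 6 higher with 4 lower in WT 500G, and 4 higher with 2 lower in *ulp2* null 500G. Over all tested genes 18.7% were higher and 18.1% lower in the first of these comparisons, 21.4% and 19.2% in the second, and 16.1% and 17.8% in the third. With passaging of *ulp2* null cells 7 rose and 5 fell, *MIG1* among the latter (-0.75, limma adjusted p = 0.00819), where 24.5% of all tested genes rose and 29.7% fell.

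*HXK2*, the gene of the main hexokinase in glucose, which also takes part in repression with Mig1, separated the strains at the late passage as *HXT4* did. It was at 137 to 141 FPKM in WT 50G, 75.3 to 85.7 in WT 500G, 167 to 178 in *ulp2* null 50G and 164 to 172 in *ulp2* null 500G. It fell by 0.80 in WT 500G relative to WT 50G (limma adjusted p = 6.27e-06), and *ulp2* null 500G exceeded WT 500G by 1.08 (limma adjusted p = 3.45e-06), with an interaction of 0.76 (limma adjusted p = 0.000199). In that comparison of strains at 500G 1 of the 22 genes was higher and 1, *GPA2*, which encodes a G protein subunit of the glucose-sensing cAMP pathway, was lower (-0.66, limma adjusted p = 0.0418), with 4.90% and 6.06% of all tested genes called. The genes of the kinase that relieves Mig1 repression, *SNF1* (-0.41) and *SNF4* (-0.48), fell in *ulp2* null 50G relative to WT 50G cells. The other calls of the list in that comparison were falls of *GLK1* (-0.45) and *TUP1* (-0.42) and rises of *HXK1* (0.42), *YCK2* (0.32) and *HXK2* (0.31).

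Most of the 10 genes known to rise on loss of glucose were lower in *ulp2* null 50G and higher in WT 500G than in WT 50G. In *ulp2* null 50G relative to WT 50G cells 8 fell and 1, *SUC2*, rose, where 18.1% of all tested genes fell and 18.7% rose. The falls included the glyoxylate cycle genes *ICL1* (-1.42) and *MLS1* (-1.72) and the gluconeogenic *PCK1* (-1.21). In WT 500G 7 rose and 1 fell, beside 21.4% and 19.2% of all tested genes. The rises included *ADH2*, the ethanol-oxidising alcohol dehydrogenase, by 2.57, *JEN1*, the lactate transporter, by 1.00 and *HSP12* by 1.27. In *ulp2* null 500G 5 were higher than in WT 50G and 2, *ICL1* (-0.20) and *SUC2*, lower, beside 16.1% and 17.8% of all tested genes. Relative to WT 500G 0 were higher and 5 lower by limma (0 and 7 at an unadjusted p under 0.05), beside 4.90% and 6.06% of all tested genes, and relative to *ulp2* null 50G 9 were higher and 1 lower, beside 24.5% and 29.7%. The median differences of this list in the same order were -0.71, 0.60, 0.18, -0.30 and 1.19. *SUC2*, the invertase gene, which Mig1 represses, differed by 0.77 in *ulp2* null 50G and by -0.45 in WT 500G relative to WT 50G, opposite in sign to the other 9, and by -0.30 in *ulp2* null 500G, where *ICL1*, *PCK1* and *MLS1* were also below 0. The groups ranked in the same order by the summed FPKM of the list as by *HXT5*. That sum leans on its most abundant genes, *HSP12* giving 14055 of 40872 in WT 50G by mean. *HSP12*, *HSP26*, *CTT1*, *ADH2* and *FBP1* followed this order by mean, and *PCK1*, *ICL1*, *MLS1*, *JEN1* and *SUC2* did not. What part the state read by these genes had in the *HXT5* differences was not tested.

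For each member the 3 genes outside the set with the most similar profile were listed by Pearson correlation of log2(FPKM + 1) over the 12 libraries, among 5945 genes with mean FPKM of at least 10. *HXT2* was closest to *PDE2* (0.99), *MUP1* (0.98) and *PLB3* (0.98), and *HXT5* to *VMA1* (0.98), *ERG1* (0.98) and *YBR053C* (0.98). *HXT4* had *STE6* (0.98), *SUR2* (0.98) and *ERG4* (0.95), and *HXT6* and *HXT7* shared *DFP4* (0.98 and 0.97), *ERD2* and *TOK1*. The closest gene was *LAC1* for *HXT3* (0.95), *NUP120* for *SNF3* (0.96), *URK1* for *RGT2* (0.97), *RBA50* for *MTH1* (0.93) and *YOR231C-A* for *HXT1* (0.91). With 12 libraries in 4 groups such values are a description only.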

How the data were processed

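The authors trimmed the first 6 bases and low-quality ends of 76-base paired reads from stranded libraries, aligned them with TopHat2 2.1.1 to Ensembl R64, kept uniquely mapped reads, and computed FPKM values per gene and library with Cufflinks 2.2.1 with a correction for sequence bias. The scaling between libraries is not given in the sources used here. Per the methods total RNA was used, while the labels name polyA RNA. The deposited FPKM values were used without further scaling; low values showed no common step (at most 22.1% of low genes at 1 ratio in any of 66 library pairs), so depth could not be recovered and no interval for counting error is given.

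Values were tested as log2(FPKM + 1) for the 6572 genes with mean FPKM of at least 1 over 12 libraries, with limma 3.58.1 (R 4.3.3; 4 groups in one fit, empirical Bayes with a trend, Benjamini-Hochberg adjustment, threshold 0.05). This replaced Cuffdiff, which needs alignments. The code was tested on simulated data. The log2 scale with a pseudocount understates differences of low genes. Alternatives were no filter, a minimum mean of 10, a pseudocount of 0.1, only the groups compared, no trend, a replicate block, median-of-ratios and equal-sum scaling, *HXT6* and *HXT7* summed, and each library left out. Leaving out replicate 1 of every group, and the block with equal-sum scaling, were added after seeing the data. As a check of pairing, deviations from group means were correlated between same-numbered libraries over all tested genes. All 3 correlations exceeded 0.1 for WT 50G with *ulp2* null 500G only (0.14, 0.11 and 0.14). Elsewhere the block is given as an alternative, with its limit where single genes are named. These correlations were weak, and the block was fitted over all 4 groups.

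The 10 genes and the further lists were chosen with earlier results of these data known. All 10 are named, while the genes of the further lists are all counted but only some of those that passed are named. Sequences and coordinates are from the RefSeq copy of R64, read with biopython 1.88.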

Additional observations from a re-analysis of the deposited data

Results flagged for a closer look

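The change of *HXT4* from 50G to 500G differed between the strains by a test of the difference itself: the interaction was 1.02 (standard error 0.32, limma adjusted p = 0.0438), with *HXT4* at 29.7 ± 4.65 FPKM in WT 50G and 9.68 ± 2.92 in WT 500G, against 39.5 ± 9.0 in *ulp2* null 50G and 26.8 ± 4.99 in *ulp2* null 500G (SD, n = 3). It passed in 9 of 22 alternatives, with limma adjusted p between 0.00903 and 0.103.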

How the results depend on the processing

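The numbers of members called were 1 for *ulp2* null 50G and 5 for WT 500G, each against WT 50G, 2 for *ulp2* null 500G against WT 50G, 1 against WT 500G and 4 against *ulp2* null 50G, and 1 for the interaction; the values below keep this order. A pseudocount of 0.1, a mean FPKM of at least 10, median-of-ratios scaling and summing *HXT6* with *HXT7* left all 6 unchanged. With the replicate block, the number of the labels as a term, they were 5, 7, 4, 4, 8 and 2, and 46.2%, 52.1%, 45.1%, 21.7%, 62.4% and 32.0% of all tested genes were called, against 36.9%, 40.6%, 33.9%, 10.96%, 54.1% and 22.7% without it. All 3 correlations of same-numbered libraries passed 0.1 for WT 50G with *ulp2* null 500G only, though every library also correlated best with its own number for WT 500G with *ulp2* null 50G. Equal-sum scaling gave 2, 7, 2, 1, 8 and 0 members, beside 33.7%, 54.0%, 46.9%, 8.96%, 64.02% and 20.3% of all tested genes, and with the block 6, 9, 6, 5, 8 and 2, beside 43.4%, 64.3%, 58.7%, 19.4%, 72.6% and 30.3%. Without replicate 1 of every group they were 4, 7, 2, 3, 7 and 2, beside 41.4%, 46.2%, 37.3%, 14.0%, 57.2% and 27.4%. Without the filter the third was 1 and the interaction 0, without a trend the interaction was 0, and with only the compared groups in the fit the fourth was 0. When single libraries were left out, the numbers ran from 1 to 1, 3 to 5, 1 to 3, 1 to 1, 2 to 5 and 0 to 2. The difference of *SNF3* between *ulp2* null 500G and *ulp2* null 50G reversed to -0.073 under equal-sum scaling, with or without the block; that of *HXT5* between *ulp2* null 500G and WT 50G turned to -0.12 under the same settings and ran from -0.042 to 0.29 without single libraries, negative without *ulp2* null 500G replicate 1, and that of *MTH1* between WT 500G and WT 50G ran from -0.30 to 0.042, positive without WT 500G replicate 1. Equal-sum scaling moved the median of all genes to -0.41 for *ulp2* null 500G against *ulp2* null 50G. It moved that median to -0.27 for *ulp2* null 500G against WT 50G and to -0.34 for WT 500G against WT 50G. Of 870 single differences recomputed, 748 kept direction and side of the threshold, 46 lost the call, 70 gained one and 6 reversed. The depth of single libraries is not known, which limits the lowest values, *HXT4* in WT 500G above all.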
